A study of Mus musculus with 24 samples.

Results

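Transcripts of the matrix metalloproteinases (MMPs) and of their tissue inhibitors (TIMPs) were examined in primary brite adipocytes after knockdown of the long noncoding RNA Ctcflos. The members were 10 genes given by name, the proteases Mmp2, Mmp3, Mmp11, Mmp14, Mmp19 and Mmp23 and the inhibitors Timp1, Timp2, Timp3 and Timp4, out of 52089 gene symbols in a table of 168326 transcript entries. The list was drawn up with results on these libraries known. For each member, 1 RefSeq mRNA row was read, and where a gene had several, the row was selected on its mean RPKM over all 24 libraries, the highest being taken. This choice arose for Timp1, with rows at 1375 and 1370 RPKM, and for Mmp19, with rows at 28.3 and 27.2 RPKM. RPKM are reads divided by transcript length and by the mapped reads of the library. Of the 10 members, 9 had enough reads for a test, whereas Timp4 held 7 reads in 6 of the 24 libraries and is described by its level only.

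The starting cells were preadipocytes of inguinal white fat (stromal vascular fraction) from 129SvEv mice, which per the study's methods were males of 5 to 6 weeks. Every culture, controls included, received an induction of 2 days and a differentiation of 1 day with rosiglitazone, a PPARγ agonist that turns white fat cells towards heat production. A gapmer with locked nucleic acid ends, which recruits RNase H to the RNA it pairs with, was then delivered at 50 nM by reverse transfection. It was directed either at Ctcflos (KD) or at no transcript (NC), and RNA was collected 24 h or 72 h later, so that 4 groups of 6 libraries resulted, named KD 24 h and KD 72 h or NC 24 h and NC 72 h. The knockdown groups rest on a single gapmer sequence. The paper's figures of marker expression after this knockdown give n = 6 biological replicates. The labels do not say whether libraries came from separate cultures or animals, and p-values therefore measure the spread between libraries.

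MMPs are zinc-dependent proteases that are made as inactive precursors and cut collagens, other matrix proteins and matrix-bound signalling proteins once their propeptide is removed. Most are secreted, whereas Mmp14 and Mmp23 are anchored in the membrane. TIMPs block the active site of MMPs, and Timp2 also takes part in the activation of pro-Mmp2 by Mmp14 at the cell surface. In fat tissue the conversion of preadipocytes into rounded, lipid-filled cells is accompanied by remodelling of the surrounding matrix, and Mmp14 is known for its part in adipocyte maturation within a collagen matrix.

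Libraries held 1391832 (KD 24 h replicate 6) to 5423838 (NC 24 h replicate 2) mapped reads, so that 3 reads of a transcript of 2 kb were worth 0.277 to 1.08 RPKM. NC 72 h replicates 2 and 3 differed by 0.347 of counting noise over 8086 genes with few reads, against 1.94 for the next of 276 pairs. Separate libraries would give about 1 or more, so this pair was more alike than separate sampling allows. The reason is not stated. Their mean stood for 1 sample, which left 23 samples and n = 5 in NC 72 h. Mmp3, with more reads, did differ within the pair, as described further down. With group means subtracted, 16 libraries clustered together (the larger cluster) and the other 8 formed a smaller cluster, to which each group gave 2. Neither cluster carries a label, and several results on the members differ between them. The clusters were formed from the deviations within groups of these same libraries. A fit within 1 cluster therefore leaves out part of that spread, and its p-values are given as description only. The RefSeq transcript of Ctcflos held 12 reads in KD 24 h against 60 in NC 24 h and 17 in KD 72 h against 91 in NC 72 h. Summed levels of 6 adipocyte markers (Adipoq, Fabp4, Plin1, Cidec, Lpl and Pparg) ranged from 37160 to 49890 scaled RPKM in KD 24 h and 50450 to 52920 in NC 24 h, and from 26230 to 35780 in KD 72 h and 36590 to 48240 in NC 72 h. Summed levels of 5 brite markers (Ucp1, Cidea, Cox7a1, Ppargc1a and Elovl3) ranged from 325.3 to 475.9 scaled RPKM in KD 24 h and 456.9 to 887.8 in NC 24 h, and from 378.1 to 727.5 scaled RPKM in KD 72 h and from 1258 to 2121 in NC 72 h. The 6 epithelial and mesothelial markers (Krt8, Krt18, Krt19, Epcam, Msln and Upk3b) summed to 24.7 to 76.6 scaled RPKM in KD 24 h and 19.2 to 26.1 in NC 24 h, and to 96.6 to 163.2 scaled RPKM in KD 72 h and 18.9 to 28.3 in NC 72 h. Krt8, Epcam, Msln and Upk3b were at 0 in both NC groups, and Upk3b was at 0 in every group. The 5 smooth muscle and pericyte markers (Acta2, Tagln, Myh11, Rgs5 and Cspg4) summed to 183.7 to 864.3 scaled RPKM in KD 24 h and 509.4 to 1484 in NC 24 h, and to 270.8 to 371.4 in KD 72 h and 360.1 to 1082 in NC 72 h, with 1 of 4 tested, Tagln, called lower at 72 h. The 6 stromal progenitor markers (Pdgfra, Cd34, Ly6a, Dpp4, Pi16 and Dlk1) summed to 373.7 to 764 in KD 24 h and 407.5 to 991.9 in NC 24 h, and to 642.4 to 816 in KD 72 h and 338.5 to 977.1 in NC 72 h, with 1 of 3 tested, Cd34, called higher at 72 h. Over all entries, 12.1% were called lower and 10.4% higher in KD at 72 h. At that time 3 of 6 adipocyte and 5 of 5 brite markers were called lower and 0 higher. The 1 epithelial and mesothelial marker tested was called higher. The part of these markers in the results on the members was not tested. In bulk RNA, fewer cells of a type and less RNA per cell cannot be told apart.

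Start regions of the members are shown for the gene with the widest spread between libraries, Mmp3, and for Timp1, Timp3 and Mmp11. The latter were picked for the largest called rises over time in NC. Mmp14 and Mmp23, also called higher, are not printed. The RefSeq promoter table (GRCm38.p6) held 8 of the 10 members, all but Mmp2 and Mmp19. The 250 bases before each annotated start were searched for the AP-1 motif (TGAGTCA, or TGACTCA on the other strand), the TATA motif (TATAAA or TTTATA) and the GC box (GGGCGG or CCGCCC). AP-1 is the Fos and Jun heterodimer, long known as a regulator of stromelysin genes. Printed are the last 100 bases before the start, 5′ to 3′ on the strand of the gene, with matches to these motifs in capitals.
Mmp3, chr9:7445722-7445821, plus strand: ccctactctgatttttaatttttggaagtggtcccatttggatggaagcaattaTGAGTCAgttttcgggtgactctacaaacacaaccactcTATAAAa
Timp1, chrX:20870066-20870165, plus strand: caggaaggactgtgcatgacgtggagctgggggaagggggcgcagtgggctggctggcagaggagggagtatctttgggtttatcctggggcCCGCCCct
Timp3, chr10:86300312-86300411, plus strand: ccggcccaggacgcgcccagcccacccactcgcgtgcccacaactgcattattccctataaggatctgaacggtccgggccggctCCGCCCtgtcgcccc
Mmp11, chr10:75932503-75932602, minus strand: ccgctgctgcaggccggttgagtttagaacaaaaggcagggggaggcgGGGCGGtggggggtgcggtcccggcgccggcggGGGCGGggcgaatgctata

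Mmp3 was the only 1 of the 8 members with an AP-1 match, 46 bases before its start, and the only 1 with a TATA match. Of 32851 promoters of this length in the table, 4.46% held the AP-1 letters and 12.4% the TATA letters. GC boxes were found in Mmp11, Mmp14, Timp1, Timp2 and Timp3, that is, in 5 of 8 members against 32.7% of all promoters, and none was found in Mmp3, Mmp23 or Timp4. Members were counted by gene, whereas the shares are over single promoters, 32851 for 27025 symbols, so the units are not the same. The 100 bases shown for Mmp3 were 38% G and C, against 65% for Timp1, 69% for Timp3 and 72% for Mmp11. Among the members not printed, Timp4 (49%) and Mmp14 (54%) lay between them. These matches describe letters only and say nothing about binding.

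Timp1, a secreted inhibitor of most MMPs, was by far the most abundant member, with a mean of 1375 RPKM as deposited. The lowest Timp1 value of any sample, 686.1 scaled RPKM, lay above the highest value of every other member, 119.9 scaled RPKM (Mmp3 in NC 72 h). Timp1 made up 82.9% to 90.4% of the summed scaled RPKM of the 10 genes. Because reads come from 3′ ends, their number does not grow with transcript length, and division by length lowers long transcripts: the Timp1 row has 887 bases, that of Timp3 4681. Expressed in reads, Timp1 still held 112667.5 of them, against 11281 for Mmp14, the next.

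Among the other members Mmp14 averaged 47.3 RPKM, Mmp19 28.3, Mmp2 25.4, Timp2 23.5, Mmp3 22.4, Timp3 18.7, Mmp11 15.5, Mmp23 8.97 and Timp4 0.0491, all as deposited. In NC 24 h this order was less resolved than the means convey. Mmp14 (33.6 to 44.0 scaled RPKM) and Mmp19 (27.9 to 37.1) overlapped, as did Mmp2 (16.1 to 21.7) and Timp2 (13.5 to 22.0). Mmp3 (8.998 to 14.4), Timp3 (4.33 to 11.5), Mmp23 (4.57 to 11.5) and Mmp11 (5.00 to 8.45) were lower, and every range overlapped the next. The range of Mmp3 also overlapped that of Timp2. Timp4, the inhibitor known from heart and mature fat, did not exceed 0.344 scaled RPKM in any sample, and its reads, 1 or 2 per library where present, allowed no comparison.

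**Figure D1:**
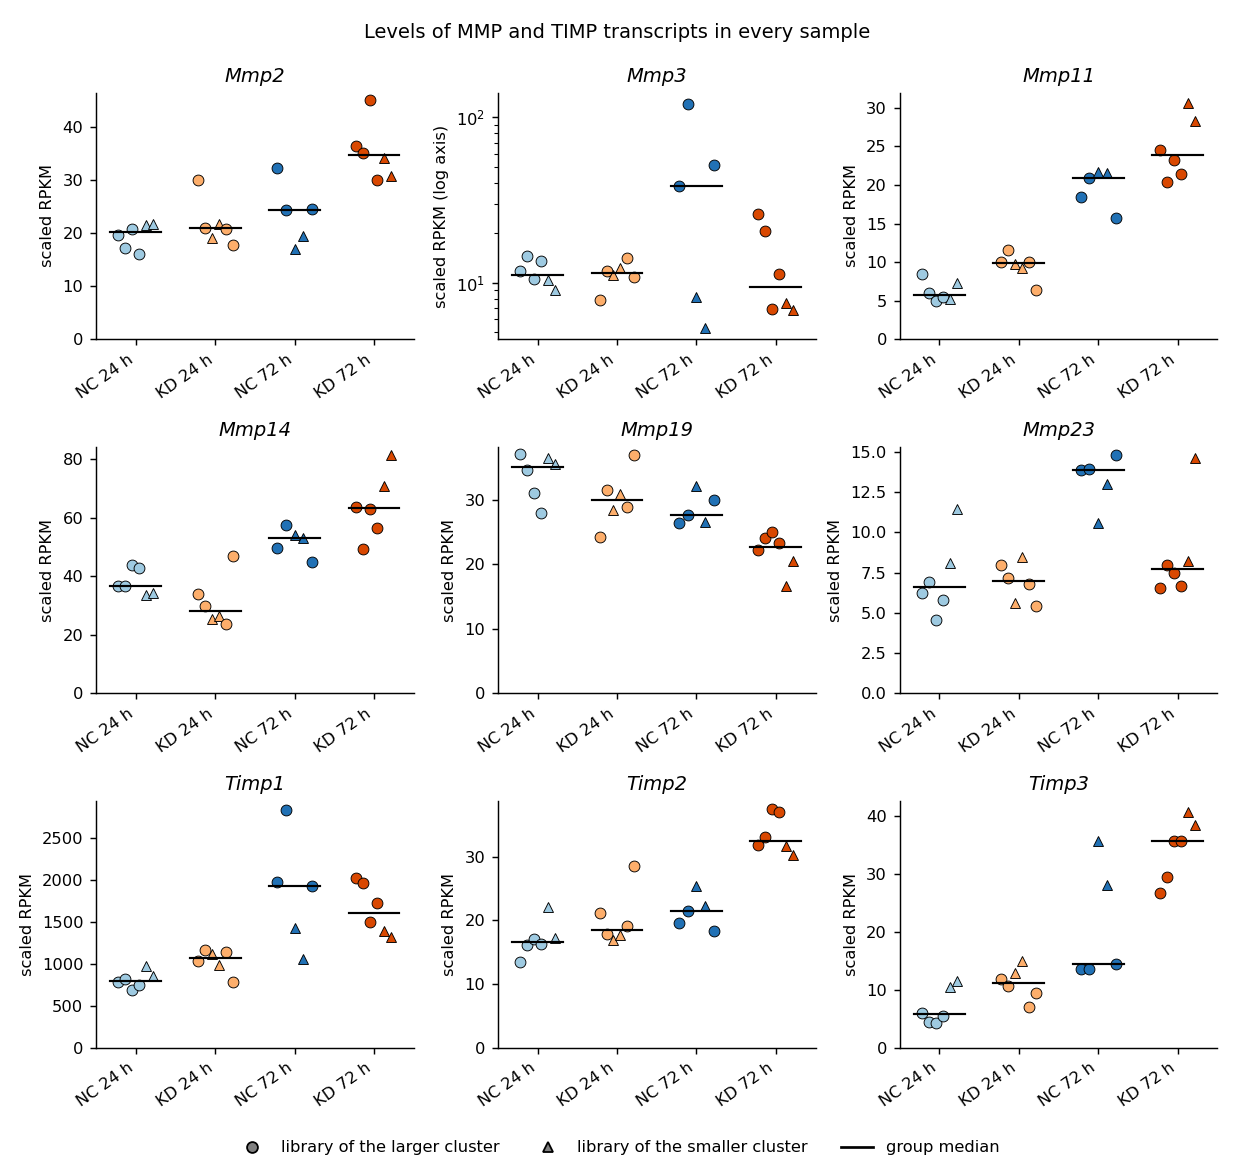
Scaled RPKM of 9 members in each of the 23 samples, by group (NC 24 h, KD 24 h, NC 72 h, KD 72 h); circles are libraries of the larger and triangles of the smaller cluster, bars are group medians, and only the Mmp3 axis is logarithmic. Mmp11, Timp1 and Timp3 were higher in every NC 72 h sample than in any NC 24 h sample, Timp2 was higher in every KD 72 h than in any NC 72 h sample, and Mmp3 spread from 5.31 to 119.9 within NC 72 h.

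To ask how the family changes over time without knockdown, NC 72 h was compared with NC 24 h. Cells were detached and replated with the gapmer 24 h before the first of these time points. Per the study's methods, cultures kept to 72 h received fresh differentiation medium at 24 h. Maturation, time since replating and transfection, and the change of medium therefore cannot be told apart. Several members rose and none fell. Of the 9 tested, 5 were called higher at an adjusted p-value under 0.05 (limma over all entries, Benjamini-Hochberg), against 9.15% of 52694 entries called in either direction, 4.64% higher and 4.51% lower. They were Mmp11, Mmp14, Mmp23, Timp1 and Timp3. The median log2 fold change of the 9 was 0.93 and that of all entries 0.01. In 4 of them, all but Mmp23, the groups did not overlap, as for 7.42% of all entries.

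Mmp11, stromelysin-3, which furin activates inside the cell and which is known to restrain fat cell differentiation, showed the smallest p-value. It measured 5.00, 5.71 and 8.45 scaled RPKM at the lowest, median and highest NC 24 h library. In NC 72 h it measured 18.4 in replicate 1, 20.9 in the averaged replicates 2 and 3, and 21.7, 21.6 and 15.7 in replicates 4, 5 and 6, an order kept below. Every sample at 72 h thus lay well above every sample at 24 h. Mmp11 rose 3.17-fold (log2 fold change 1.66 ± 0.16, SE, adjusted p = 3.52e-05), and by 1.56 in the larger and 1.80 in the smaller cluster alone.

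Timp3, the inhibitor that binds to the matrix and also blocks ADAM proteases, measured 4.33, 5.75 and 11.5 scaled RPKM at the lowest, median and highest NC 24 h library. In NC 72 h the samples measured 13.6, 13.5, 35.5, 28.1 and 14.4. All lay above the 24 h group, and replicates 4 and 5, the libraries of the smaller cluster, were clearly above the other samples. Timp3 rose 2.94-fold (log2 fold change 1.55 ± 0.32, SE, adjusted p = 0.00645). The rise was 1.44 within the larger and 1.53 within the smaller cluster, since the smaller cluster was higher at 24 h as well (10.4 and 11.5, against 4.33 to 5.98).

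Timp1 measured 686.1, 799.5 and 978.9 scaled RPKM at the lowest, median and highest NC 24 h library. In NC 72 h the samples measured 1968, 2828, 1427, 1060 and 1922. The 72 h samples were all higher, and the order of the clusters was opposite to that of Timp3, with replicates 4 and 5 lowest. Timp1 rose 2.18-fold (log2 fold change 1.13 ± 0.18, SE, adjusted p = 0.0013). In the larger cluster the rise was 1.54 ± 0.12 (adjusted p = 2.53e-05), and in the smaller it was not called (0.44 ± 0.13, adjusted p = 0.12).

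Mmp14, the membrane protease that cuts fibrillar collagen and activates pro-Mmp2, measured 33.6, 36.6 and 44.0 scaled RPKM at the lowest, median and highest NC 24 h library and 49.7, 57.4, 54.0, 53.2 and 44.96 in NC 72 h. The groups came close without overlapping. It rose 1.37-fold (log2 fold change 0.46 ± 0.10, SE, adjusted p = 0.0102). With all 4 groups in 1 fit the adjusted p-value was 0.0786, and in the larger cluster alone 0.107.

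Mmp23, a small membrane-bound protease without the hemopexin domain of most MMPs, measured 4.57, 6.59 and 11.5 scaled RPKM at the lowest, median and highest NC 24 h library and 13.9, 13.9, 10.6, 13.0 and 14.8 in NC 72 h. It rose 1.91-fold (log2 fold change 0.93 ± 0.20, SE, adjusted p = 0.00818), with an overlap between the highest 24 h and the lowest 72 h value. Both of these values came from the smaller cluster, in which the change was not called (0.30 ± 0.25, adjusted p = 0.591).

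Mmp2, Mmp3, Mmp19 and Timp2 did not pass the test over time. Mmp2, gelatinase A, had a log2 fold change of 0.25 ± 0.15 (SE, adjusted p = 0.358), Mmp19 of -0.23 ± 0.10 (adjusted p = 0.193) and Timp2 of 0.34 ± 0.13 (adjusted p = 0.127). For Mmp3, stromelysin-1, the difference of 1.14 ± 0.61 (SE, adjusted p = 0.286) was larger than that of Mmp14 or Mmp23 but smaller than its spread, as described further down.

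**Figure D2:**
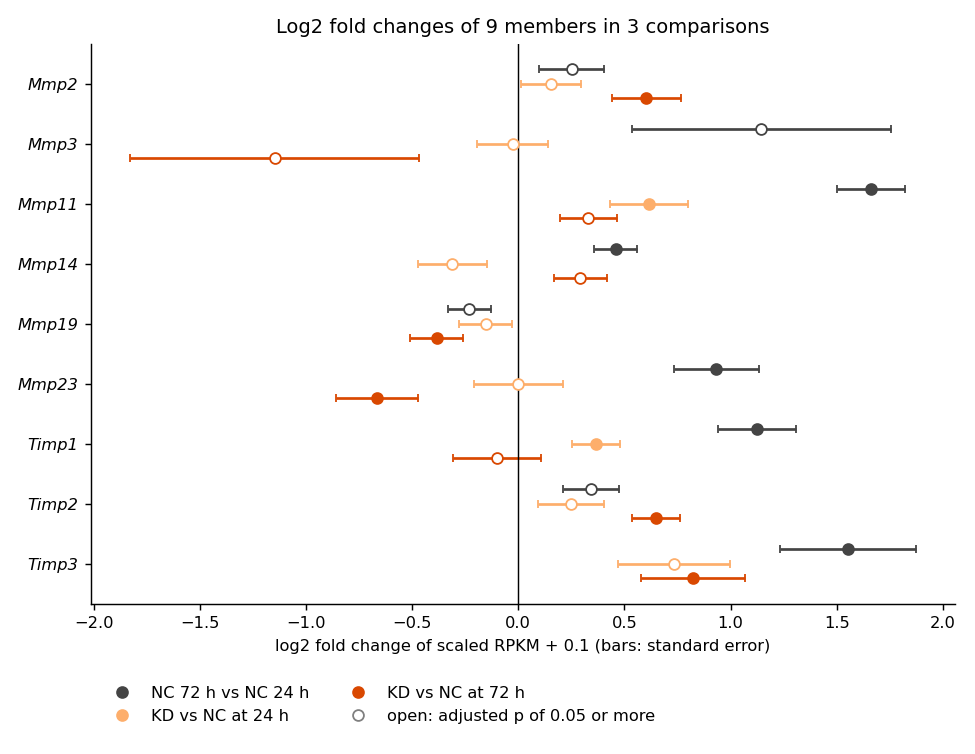
Log2 fold changes of 9 members with standard errors for NC 72 h against NC 24 h, KD against NC at 24 h and KD against NC at 72 h; filled points passed an adjusted p-value of 0.05 and open points did not. The filled points over time all lie to the right of 0, and those for KD against NC at 72 h lie on both sides.

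Whether the family responded shortly after the knockdown was asked at 24 h. Mmp11 and Timp1 were higher in KD, and no member was called lower. These 2 calls among 9 members stand beside 22.7% of 52006 entries called (11.1% of all entries higher and 11.6% lower), and are thus at the share of all entries. The median log2 fold change was 0.16, against -0.01 for all entries, and in every member the groups overlapped.

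Mmp11 measured 6.36, 9.88 and 11.6 scaled RPKM at the lowest, median and highest library in KD 24 h, and 5.00, 5.71 and 8.45 in NC 24 h. Of the KD libraries only replicate 6, the one with the fewest reads, lay within the range of NC. The log2 fold change was 0.61 ± 0.18 (SE, adjusted p = 0.0261), and leaving out each replicate number in turn gave adjusted p-values of 0.00733 to 0.103, with the call lost without replicate 2, 3, 4 or 5.

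Timp1 measured 788.3, 1072 and 1168 scaled RPKM in KD 24 h in the same order, and 686.1, 799.5 and 978.9 in NC 24 h. Here, too, replicate 6 of KD lay lowest, and the other 5 exceeded every NC library. The log2 fold change was 0.37 ± 0.11 (SE, adjusted p = 0.0298), with adjusted p-values of 0.00529 to 0.109 when each replicate number was left out and the call lost without replicate 1, 2, 3 or 4. Without KD 24 h replicate 6 alone, an alternative added after the data were seen, the log2 fold change was 0.72 (adjusted p = 0.00628) for Mmp11 and 0.44 (adjusted p = 0.00321) for Timp1.

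Timp3 missed the threshold at 24 h. It measured 7.01, 11.2 and 15.0 scaled RPKM in KD and 4.33, 5.75 and 11.5 in NC, with a log2 fold change of 0.73 ± 0.26 (SE, adjusted p = 0.0583). The 2 NC libraries that reached into the KD range were those of the smaller cluster, without replicate 5 or 6 it was called (adjusted p = 0.0268 and 0.0203), and in the larger cluster alone the difference was 0.91 ± 0.22 (adjusted p = 0.015). On recovered reads with voom it was 0.73 (adjusted p = 0.0344).

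Mmp14 measured 23.6, 28.2 and 47.0 scaled RPKM in KD 24 h and 33.6, 36.6 and 44.0 in NC 24 h. All KD libraries but replicates 1 and 6 lay below NC, and replicate 6 lay above every NC library. The log2 fold change was -0.31 ± 0.16 (SE, adjusted p = 0.179). Without KD 24 h replicate 6 it was -0.44 (adjusted p = 0.0155), so this 1 library decided the call. The other members had log2 fold changes at 24 h of 0.16 ± 0.14 (Mmp2), -0.03 ± 0.17 (Mmp3), -0.15 ± 0.12 (Mmp19), 0.00 ± 0.21 (Mmp23) and 0.25 ± 0.16 (Timp2, SE, adjusted p = 0.264). Other transcript entries of Mmp19 gave larger differences, as described further down.

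At 72 h the comparison addressed the later state after knockdown. Timp2, Timp3 and Mmp2 were higher in KD, and Mmp19 and Mmp23 were lower. These 5 of 9 members stand beside 22.5% of 54139 entries called, 10.4% higher and 12.1% lower. The groups did not overlap for Timp2 and Mmp19, and the share without overlap was 13.9% over all entries. The median log2 fold change was 0.29 for the members and 0.01 for all entries.

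Timp2, the inhibitor that also forms the activation complex of pro-Mmp2 with Mmp14, measured 30.2, 32.5 and 37.5 scaled RPKM at the lowest, median and highest KD 72 h library. The NC 72 h samples measured 19.7, 21.5, 25.4, 22.3 and 18.3. The lowest KD library exceeded the highest NC sample. Timp2 was 1.57-fold higher (log2 fold change 0.65 ± 0.11, SE, adjusted p = 0.0011). All 5 of its transcript entries, which hold in part the same reads, were called higher. The adjusted p-value stayed between 0.00278 and 0.00859 as each replicate number was left out, whereas the smaller cluster alone gave 0.38 ± 0.17 (adjusted p = 0.193).

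Mmp2, whose precursor that complex activates, measured 29.95, 34.6 and 44.9 scaled RPKM in KD 72 h and 32.3, 24.3, 16.9, 19.5 and 24.6 in the NC 72 h samples. The KD libraries overlapped with replicate 1 of NC only. Mmp2 was 1.52-fold higher (log2 fold change 0.60 ± 0.16, SE, adjusted p = 0.016). The larger cluster alone gave 0.44 (adjusted p = 0.0673) and the smaller 0.83 (adjusted p = 0.019), and leaving out replicate 5 gave 0.56 (adjusted p = 0.0535).

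Timp3 measured 26.6, 35.7 and 40.7 scaled RPKM in KD 72 h and 13.6, 13.5, 35.5, 28.1 and 14.4 in NC 72 h. In KD every library was high, and in NC only replicates 4 and 5 were, so that the overlap came from the smaller cluster. Timp3 was 1.77-fold higher (log2 fold change 0.82 ± 0.24, SE, adjusted p = 0.027). In the larger cluster alone the difference was 1.19 ± 0.14 (adjusted p = 0.000136) and in the smaller 0.32 ± 0.17 (adjusted p = 0.272). Both p-values are description only, since the clusters came from these same libraries. Without replicate 1 and without replicate 6 the adjusted p-value was 0.0743 and 0.104.

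Mmp23 measured 6.56, 7.75 and 14.6 scaled RPKM in KD 72 h and 13.9, 13.9, 10.6, 13.0 and 14.8 in NC 72 h. Replicate 6 of KD stood apart from the other 5, which did not exceed 8.25 and lay below all NC samples. Mmp23 was lower in KD, with a log2 fold change of -0.66 ± 0.19 (SE, adjusted p = 0.0241), and with replicate number 6 left out of both groups it was -0.79 (adjusted p = 0.00448). Without replicate 1 or 5 the call was lost (adjusted p = 0.101 and 0.0619). The difference was -0.97 in the larger cluster (adjusted p = 0.00125) and -0.10 in the smaller (adjusted p = 0.88). The KD 72 h libraries of the larger cluster, at 6.56 to 8 scaled RPKM, stood near the NC 24 h libraries of that cluster, at 4.57 to 6.91. In the smaller cluster KD 72 h measured 8.25 and 14.6, NC 24 h 8.075 and 11.5 and NC 72 h 10.6 and 13.0. A difference between the effects at 24 h and 72 h was not called, as described further down.

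Mmp19, a secreted protease of basement membrane proteins, measured 16.6, 22.7 and 25.0 scaled RPKM in KD 72 h and 26.4, 27.6, 32.2, 26.6 and 29.95 in NC 72 h. Every KD library lay below every NC sample, by a small margin. The log2 fold change was -0.38 ± 0.12 (SE, adjusted p = 0.0397). Leaving out each replicate number gave adjusted p-values of 0.0348 to 0.115, and the call held only without replicate 3.

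The scaling bears on the comparison at 72 h. On the deposited RPKM, entries shifted by a median of 0.25 on the log2 scale, and the changes given here are relative to that shift. Without scaling, Mmp19 (-0.13, adjusted p = 0.421) and Mmp23 (-0.42, adjusted p = 0.159) were no longer called, and Mmp11 (0.58, adjusted p = 0.0133) and Mmp14 (0.54, adjusted p = 0.013) were. Mmp2, Timp2 and Timp3 were called higher on both scales. With scaling, Mmp11 had 0.33 ± 0.13 (SE, adjusted p = 0.0944) and Mmp14 0.29 ± 0.12 (adjusted p = 0.104), which was called without replicate 2 (0.37, adjusted p = 0.0421). Timp1 did not pass, at -0.10 ± 0.21 with scaling (adjusted p = 0.774) and at 0.15 without.

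A difference between the effects at the 2 times was tested by the interaction over all groups. In limma 0 of 9 members were called, against 0.202% of 59267 entries (0.128% higher and 0.0742% lower), and 4 had an unadjusted p-value under 0.05, namely Mmp14, Mmp23, Timp2 and Mmp2. With voom on recovered reads 0 were called as well. Mmp14 had the smallest adjusted p-value, with an effect higher by 0.61 ± 0.21 (SE) at 72 h (adjusted p = 0.22). For Mmp23 the effect was lower by -0.65 ± 0.29 (adjusted p = 0.384). The calls of Timp2, Timp3, Mmp2, Mmp19 and Mmp23 at 72 h alone, and of Mmp11 and Timp1 at 24 h alone, were therefore not shown to differ between the times.

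Mmp3, which cuts proteoglycans, laminin and other MMP precursors, was the member with the widest spread. At 24 h it was even, at 7.84 to 14.0 scaled RPKM in KD and 8.998 to 14.4 in NC. In NC 72 h the samples measured 38.5, 119.9, 8.13, 5.31 and 50.9, a 22.6-fold range. In KD 72 h replicates 1 and 2 measured 26.1 and 20.4, and the other 4 lay between 6.82 and 11.3.

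The high and the low NC 72 h samples of Mmp3 were those of the larger and of the smaller cluster. In the larger cluster alone Mmp3 rose over time by 2.30 ± 0.31 on the log2 scale (SE, adjusted p = 0.000837) and was lower in KD at 72 h by -2.10 ± 0.45 (adjusted p = 0.00603). In the smaller cluster the same differences were -0.54 ± 0.27 (adjusted p = 0.352) and 0.13 ± 0.29 (adjusted p = 0.833). Over all samples KD against NC at 72 h gave -1.15 ± 0.68 (adjusted p = 0.248), which did not pass. The clusters were found in these same data and carry no label, and what sets them apart was not tested. Within the averaged pair Mmp3 was also unusual: it held 869 reads in replicate 2 and 586 in replicate 3, the second largest difference among the 971 most abundant genes of the pair.

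**Figure D3:**
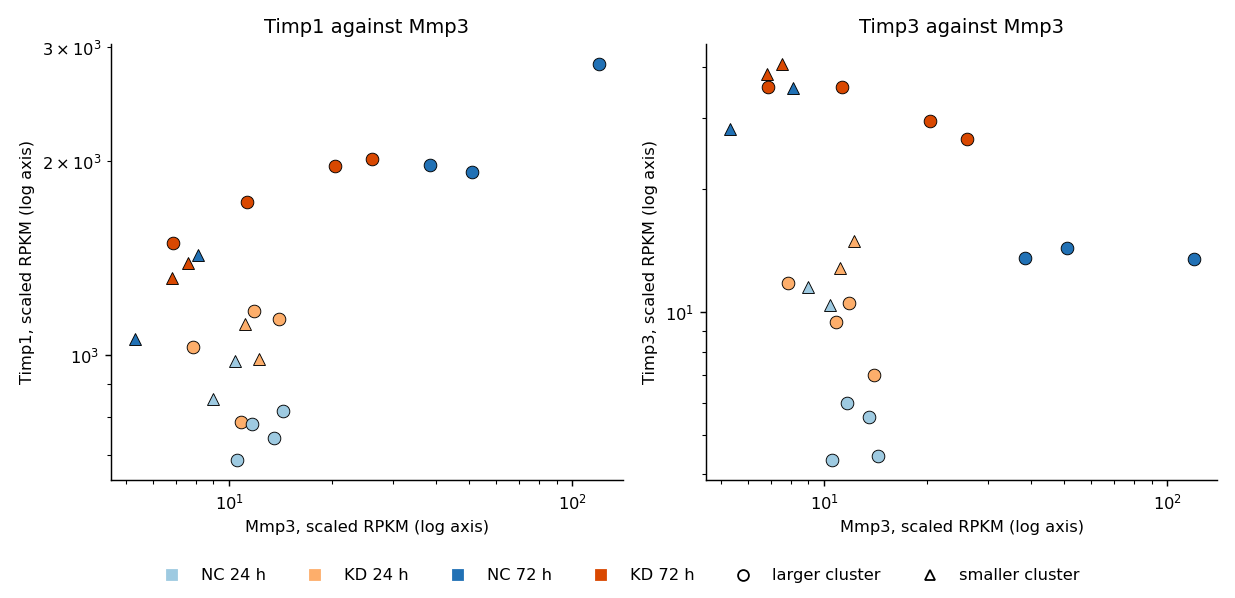
Timp1 (left) and Timp3 (right) against Mmp3 in 23 samples, in scaled RPKM on logarithmic axes; colours are groups, circles the larger and triangles the smaller cluster. Among 72 h samples, those high in Mmp3 were high in Timp1, and the 3 NC samples highest in Mmp3 (38.5 to 119.9) had the lowest Timp3 of that time point (13.5 to 14.4).

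Deviations from the group means, over 23 samples that differ in depth and cluster, gave a Pearson r of 0.85 between Mmp3 and Timp1 and of -0.68 between Mmp3 and Timp3. Between Timp1 and Timp3 it was -0.36. Across samples with the group differences left in, Mmp11 and Timp3 were the closest pair of members (r = 0.89), and Mmp11 and Mmp19 the most opposed (r = -0.75). With group means removed these pairs were at 0.32 and -0.30, so the higher values came largely from the differences between groups.

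The genes whose log2 levels followed each member most closely were sought among 12680 symbols over the 23 samples. For Mmp3 they were Saa3 (r = 0.93), an acute-phase serum amyloid, and Lbp (r = 0.89), the lipopolysaccharide binding protein. Saa3 ranged from 43.6 to 6395 scaled RPKM within NC 72 h and from 145.5 to 294.4 within NC 24 h, and Lbp from 0.352 to 20.8 and from 0.274 to 1.85. Both were thus uneven in the same group as Mmp3. With group means removed, Saa3 still followed Mmp3 at r = 0.92.

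For Timp3 the closest genes were Spp1 (r = 0.94), which encodes osteopontin, and Pmepa1 (r = 0.92), a target of TGF-β signalling. Spp1 was also among the closest to Mmp11 (r = 0.93), beside Ly6k (r = 0.93). Spp1 measured 63.2 to 168.2 scaled RPKM in NC 24 h, 67.3 to 258.5 in KD 24 h, 278.0 to 564.5 in NC 72 h and 652.0 to 861.7 in KD 72 h, the same order of groups as Timp3. Mmp14 was followed most closely by Tbc1d2b (r = 0.90) and Cdh11 (r = 0.88), Timp1 by Tmem176b (r = 0.91) and Lrrc32 (r = 0.90), Timp2 by Hspb2 (r = 0.90) and Laptm4b (r = 0.90), Mmp2 by Cldn15 (r = 0.85) and Tmem134 (r = 0.85), and Mmp23 by Efemp2 (r = 0.76) and Snx24 (r = 0.75). These values include the differences between groups. With group means removed, the 2 closest genes were others for every member of this paragraph. For Timp3 they were Hs6st2 (r = 0.88) and F3 (r = 0.85), and for Mmp11 Vezt (r = 0.82) and Sf3a3 (r = 0.81).

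For Mmp19 the closest genes were Tmem198b (r = 0.90) and Mylk (r = 0.83). In the GENCODE M21 annotation Tmem198b lies on the opposite strand, and its exons share 789 bases with exons of Mmp19 where the 3′ ends of the genes converge. None of these bases lie in the annotated transcript of the accession read, of 2236 bases, but the deposited row is longer, at 3275 bases. How strand was handled in counting was not stated, and reads of these ends cannot be told apart. The row read held 8749.5 reads, whereas entries of 2202 to 2430 bases held 2808.5 to 3159.5. Tmem198b measured 21.8 to 30.1 scaled RPKM in NC 72 h and 17.1 to 22.1 in KD 72 h (log2 fold change -0.32 ± 0.12, SE, adjusted p = 0.0657). Of the 9 Mmp19 entries 4 were called lower at 72 h, and the 3 of 2202 to 2430 bases were not, at -0.39 to -0.46 (adjusted p = 0.0893 to 0.167). At 24 h these 3 were at -0.53 to -0.54 (adjusted p = 0.0815 to 0.0975), against -0.15 for the row read. All 9 then ranged from -0.69 to -0.03, with 0 called. The effect of these 3 at 72 h minus that at 24 h was 0.08 to 0.15, against -0.22 for the row read, and was not called. Mmp19 is thus uncertain at both times.

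Timp1, Timp3 and Timp4 each lie inside a synapsin gene on the opposite strand, Syn1, Syn3 and Syn2. These host genes were near absent, with highest values of 0.674, 0.0812 and 0.274 RPKM in any library. Mmp11 shares 155 exonic bases with the abundant Chchd10 in the annotation, but 0 of them lie in the transcript read here. Other entries of a member mostly moved with the row read: 5 of 5 tested entries of Timp3, 3 of 3 of Timp1, 4 of 4 of Mmp11 and 3 of 3 of Mmp14 and of Mmp23 were called higher over time. Entries of a gene hold in large part the same reads, for Timp1 112667.5 and 112672.5 in its RefSeq rows. Their agreement therefore adds no separate evidence.

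**Figure D4:**
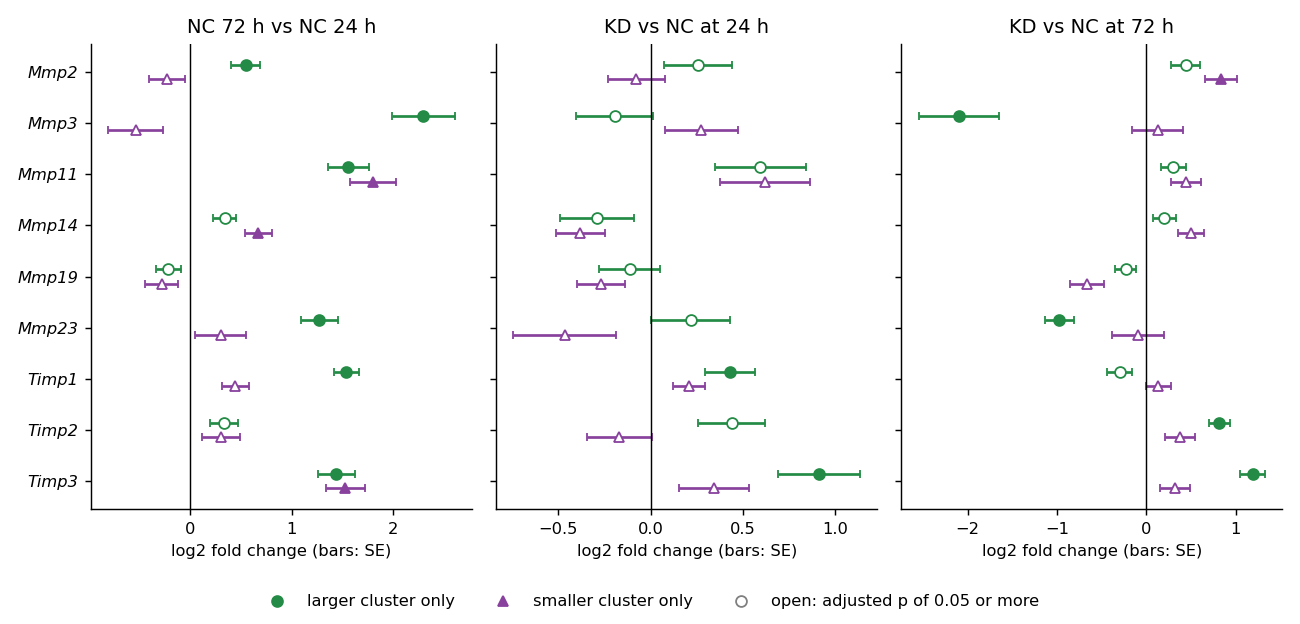
Log2 fold changes of 9 members with standard errors, fitted within the larger (circles) and the smaller cluster (triangles) alone, for the comparisons over time, at 24 h and at 72 h; filled points passed an adjusted p-value of 0.05. Mmp11 and Timp3 changed alike over time in both clusters (1.56 and 1.80, 1.44 and 1.53), and Mmp3 stood apart at 2.30 and -0.54. The clusters were drawn from these same libraries, so p-values within them are description only.

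Summed levels of the inhibitors exceeded those of the proteases in every sample. The ratio of summed TIMP to summed MMP, in scaled RPKM, was 7.18 ± 0.906 in NC 24 h (SD, n = 6), 9.77 ± 1.79 in KD 24 h (SD, n = 6), 10.2 ± 1.29 in NC 72 h (SD, n = 5) and 10.3 ± 2.13 in KD 72 h (SD, n = 6). It is a ratio of length-divided transcript levels, ruled by Timp1, and is given without a test. Without Timp1 the ratio fell below 1 in every sample, at 0.163 to 0.282 in NC 24 h and 0.251 to 0.305 in KD 24 h, and at 0.133 to 0.426 in NC 72 h and 0.327 to 0.488 in KD 72 h.

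Other proteases and regulators of the pathway were read from 4 lists that were not picked for how their genes moved, although earlier results of these data were known. Of 17 further MMP genes 3 had enough reads over time and 2 in each knockdown comparison. Mmp12, the macrophage metalloelastase, did not pass the filter at 24 h and measured 0.511 to 2.21 scaled RPKM in NC 72 h and 0 to 0.927 in KD 72 h. It was 1 of the 2 genes tested at 72 h and was called lower, but only 4 of 5 NC and 2 of 6 KD samples reached the reads asked for by the filter on low values. The filter was thus met mostly through the group in which it is high, and its fold change is not given. The 4 macrophage markers measured (Cd68, Csf1r, Lyz2 and Ptprc) summed to 7.46 to 29.6 scaled RPKM in NC 72 h and 5.50 to 10.5 in KD 72 h, but they did not move together. Of the 2 with enough reads for a test at 72 h, Csf1r was higher in KD (1.24 ± 0.25, SE, adjusted p = 0.00309) and Lyz2 lower (-3.68 ± 0.59, adjusted p = 0.00065). At 24 h Csf1r was higher as well (1.22 ± 0.27, adjusted p = 0.00608). The part of these markers in the Mmp12 values was not tested.

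Of 17 ADAM and ADAMTS genes, related metalloproteases, 12 were tested at 24 h and 13 at 72 h, with 3 called lower and 0 higher at either time, beside 22.7% and 22.5% of all entries called (11.6% and 12.1% lower). They were Adam12 (-1.68 ± 0.26 at 24 h and -1.69 ± 0.19 at 72 h), Adam19 (-1.28 ± 0.28 and -0.60 ± 0.18) and Adamts2 (-1.15 ± 0.16 and -1.18 ± 0.18), with SE. Adamts2, the procollagen N-proteinase, measured 8.44 to 11.5 scaled RPKM in NC 24 h and 3.40 to 5.08 in KD 24 h, and 10.5 to 21.03 in NC 72 h and 5.70 to 8.31 in KD 72 h. Over time 2 of 14 were called, both higher, beside 9.15% of all entries, Adamts2 (0.65 ± 0.17, SE, adjusted p = 0.0242) and the aggrecanase Adamts5 (1.07 ± 0.22, adjusted p = 0.00629).

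The plasminogen system supplies plasmin, which can remove the propeptide of several MMPs. The list is given in part only, so no count is read from it. Plaur, Plat and S100a10 were called higher in KD at both times, where 11.1% and 10.4% of all entries were. Plaur, the urokinase receptor, went from 1.78 to 3.82 scaled RPKM in NC 24 h to 6.63 to 15.2 in KD 24 h (log2 fold change 2.11 ± 0.26, SE, adjusted p = 0.000167), and from 1.56 to 6.08 in NC 72 h to 11.3 to 20.2 in KD 72 h (1.99 ± 0.29, adjusted p = 0.00032). Plaur reached the reads asked for by the filter in 6 of 6 KD and 4 of 6 NC libraries at 24 h. At 72 h it did so in 6 of 6 KD and 4 of 5 NC samples, so that KD alone met the filter at both times. Plat, tissue plasminogen activator, was higher by 0.58 ± 0.17 and 0.78 ± 0.14 and S100a10, a plasminogen-binding partner of annexin A2, by 0.41 ± 0.11 and 0.51 ± 0.12. Anxa2 was called lower at 72 h (-0.32 ± 0.10, SE, adjusted p = 0.0428). Over time Serpine2, protease nexin-1, was called higher (1.07 ± 0.27, adjusted p = 0.0205).

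Of 11 genes that process, bind or clear MMPs, 7 were tested at 24 h, with 1 called higher and 1 lower, and 9 at 72 h, with 2 higher and 1 lower. The shares of all entries called were 22.7% and 22.5%, near these counts. Cd44, a docking receptor for MMPs at the cell surface, was higher in KD at both times (0.59 ± 0.16 and 0.56 ± 0.16, SE). Lrp1, the endocytic receptor that clears MMPs and their complexes, was lower at 24 h (-0.76 ± 0.19, SE, adjusted p = 0.0117). At 72 h the low-level genes Itgb3, an integrin subunit, and Pcsk5, a proprotein convertase, were called higher and lower. Itgb3 measured 0.534 to 1.51 scaled RPKM in KD and 0.102 to 0.502 in NC, and it met the filter through KD (6 of 6 samples against 1 of 5), so its fold change is not given. Pcsk5 measured 0.283 to 0.845 in KD and 0.967 to 2.53 in NC (-1.24 ± 0.30, SE, adjusted p = 0.0084). Over time 2 of 8 were called higher and 1 lower, beside 9.15% of all entries. These were Bsg (1.01 ± 0.23, adjusted p = 0.011), the MMP inducer basigin, and Itgav (0.84 ± 0.16, adjusted p = 0.00408), which rose, and Cav1, which fell (-0.59 ± 0.07, adjusted p = 0.000158).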

How the data were processed

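RNA was sequenced by BRB-seq, in which barcoded oligo-dT primers mark each sample before pooling and transcript 3′ ends are read. The authors deposited 1 table of RPKM per transcript entry, made with the Genomatix suite on RefSeq and other transcripts. Software version, genome build and strand handling were not given in the sources used here. Values carry a decimal comma. Reads were recovered from the steps between low values, of which 95.1% to 95.6% per library were whole except in NC 72 h replicate 6, whose values moved in steps of 0.5 reads.

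Within each comparison, libraries were brought to 1 scale with trimmed means of their log ratios (30% of ratios and 5% of levels trimmed at each end) and values analysed as log2(scaled RPKM + 0.1), a scale that understates changes of low entries. Entries needed 10 read equivalents of the median library in as many samples as the smaller group and 15 in total. Two-sided tests used limma 3.58.1 in R 4.3.3 with an intensity trend, over all entries, and calls were made at a Benjamini-Hochberg adjusted p-value under 0.05. No count model was the main test, because the deposited values are RPKM. The code was tested on simulated data. Clusters came from hierarchical clustering of deviations from the group means over 8582 genes.

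The members and gene lists were chosen with earlier results of these data known. All 10 members were named, of the other lists at most 4 called genes per comparison by smallest adjusted p-value, and for each member the 2 symbols of highest correlation. Alternatives covered the pseudocount, scaling, filter, entries, replicate block, clusters, left-out replicates, a fit of all groups and voom on recovered reads. The plasminogen list is not reported in full here.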

Additional observations from a re-analysis of the deposited data

Results flagged for a closer look

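Across 40 sets of 5 or 6 values (10 members in 4 groups), 5 samples lay far from the rest of their group, measured as the gap to the nearest other sample divided by the range of the group. For normally spread values, chance alone gives about 1 in 20 sets. Mmp2 in KD 24 h replicate 1 measured 29.9 scaled RPKM against 17.7 to 21.6 in the other libraries (gap of 0.684 of the range). Mmp23 in KD 72 h replicate 6 measured 14.6 against 6.56 to 8.25 (0.79 of the range), and this library alone brought the KD group into the range of NC. Timp2 in KD 24 h replicate 6, the library with the fewest reads, measured 28.5 against 16.9 to 21.2 (0.632 of the range). Timp4 was above 0 in KD 24 h replicate 1 only, at 0.344 scaled RPKM from 2 reads, and in NC 72 h replicate 4 only, at 0.188 from 1 read, so that the gap was the whole range (1) in both groups. A single value above 0 among zeros always gives this gap, so the Timp4 flags cannot be set against the rate of 1 in 20.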

How the results depend on the processing

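Of the values for single members under the alternatives, 574 kept their direction and side of the threshold, 42 lost and 16 gained a call, and 25 changed sign. The cause of these changes was not tested. Mmp23 at 24 h, with 0.00 reported, turned to -0.00292 with pseudocount 1, -0.0169 without a filter, -0.00337 with 1 entry per symbol, -0.000363 with voom and -0.0141 with all groups in 1 fit. Without scaling Mmp3 at 24 h was 0.0294 and Timp1 at 72 h 0.152. In the smaller cluster alone the changes over time were -0.234 (Mmp2) and -0.538 (Mmp3), those at 24 h -0.0795 (Mmp2), 0.274 (Mmp3), -0.466 (Mmp23) and -0.17 (Timp2), those at 72 h 0.127 (Mmp3) and 0.134 (Timp1), and the interaction was 0.369 (Mmp23) and -0.0213 (Timp3). With each replicate number left out, Mmp3 at 24 h ranged from -0.116 to 0.0817, Mmp23 at 24 h from -0.112 to 0.201 and the Timp3 interaction from -0.238 to 0.449.

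Members called numbered 5 over time, 2 at 24 h, 5 at 72 h and 0 for the interaction. Without a filter they were 0 at 24 h and 2 at 72 h. In the larger cluster 1 was called for the interaction, Mmp23 at -1.19 (adjusted p = 0.0286), and in the smaller 3 over time, 0 at 24 h, 1 at 72 h and 1 for the interaction, Mmp14 at 0.88 (adjusted p = 0.0229). Leaving out each replicate number gave 5 to 5 over time, 0 to 4 at 24 h, 2 to 5 at 72 h and 0 to 0 for the interaction. Mmp11 at 24 h was lost without replicate 2, 3, 4 or 5, and Timp1 at 24 h without 1, 2, 3 or 4. With all groups in 1 fit Timp1 at 24 h was lost (adjusted p = 0.122) and Timp3 gained (0.0423). Without KD 24 h replicate 6, chosen after seeing the data, 3 were called at 24 h, beside 13269 entries there and 176 for the interaction.

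Entries called for the interaction, 120 as reported, were 243 with pseudocount 1, 773 without scaling, 45 with 1 entry per symbol, 182 with the paired libraries kept apart, 869 in the larger and 1849 in the smaller cluster. With 1 entry per symbol, which tests fewer entries, 1075 were called over time, 2613 at 24 h and 2807 at 72 h. The smaller cluster, with fewer samples, gave 1799, 1562 and 5841. Leave-one-out ranges were 3253 to 4021 over time, 6239 to 11641 at 24 h, 7723 to 10588 at 72 h and 5 to 126 for the interaction. Without scaling 80.9% of calls at 72 h were higher, against 46.2%, and 96.1% of those for the interaction.

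Same-numbered libraries did not deviate together (mean r of -0.0762 between the groups at 24 h, 0.0323 at 72 h and 0.0292 over time), so the replicate numbers do not pair them. With the replicate block 2920 entries were called over time and 30 for the interaction, and 0 members at 24 h, where Mmp11 had an adjusted p of 0.0664 and Timp1 of 0.0596, and Mmp19 at 72 h had 0.0576. Too few reads left Timp4 untested, and of the 17 further MMP genes 14 over time and 15 in each knockdown comparison.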
